A study of Mus musculus with 3 samples.

Results

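Lymphatic endothelial cells were examined as barcodes of a marker gate in single-droplet RNA counts of mouse heart ventricle. A barcode was a member when it held at least 4 UMIs (counted RNA molecules) summed over Reln, Mmrn1 and Prox1, and at most 3 UMIs summed over the 5 excluding genes Pdgfra, Dcn, Csf1r, Mrc1 and Abcc9. The excluding genes mark fibroblasts, macrophages and pericytes. The gate held 195 of the 18021 barcodes of the series. The members were thus chosen by the UMI counts of these 8 genes, whose own levels describe the choice and are no result.

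The series screened drugs for fibrosis of the heart. It points to MD2, encoded by Ly96, which binds endotoxin together with the receptor Tlr4. Ventricles of C57B6 mice, stored frozen, gave 3 10x Genomics libraries, each from 3 pooled hearts. The Sham library came from sham-operated, vehicle-treated mice. The TAC library came from vehicle-treated mice after transverse aortic constriction, a surgical narrowing of the aorta that raises the pressure the left ventricle works against. The TAC+ART library came from TAC mice given artesunate, a derivative of artemisinin used as an antimalarial. The sources used here do not give age, sex, dose or time, nor whether whole cells or nuclei were loaded. With 1 library per group there was no replicate and no test. Each interval below is an exact 95% interval that covers counting error only, not the variation between hearts or preparations. Values listed without library names are in the order Sham, TAC, TAC+ART.

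Lymphatic endothelium lines the vessels that drain fluid, lipid and immune cells from the heart. Its identity depends on the transcription factor Prox1, and its growth on VEGF-C acting through the receptor Flt4 (VEGFR3). Initial lymphatic vessels carry the hyaluronan receptor Lyve1 and release the chemokine Ccl21, which draws dendritic and T cells. Reln encodes the secreted glycoprotein reelin and Mmrn1 the matrix protein multimerin 1, and both are made by lymphatic endothelium. On GRCm38 (GENCODE M21), Reln lies on chr5:21884454-22344702, Mmrn1 on chr6:60924976-60989378, Prox1 on chr1:190118035-190170714 and Flt4 on chr11:49609263-49652739.

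The Sham library gave 78 members of 3752 barcodes (2.08%, interval 1.65 to 2.59). The TAC library gave 71 of 7413 (0.958%, 0.749 to 1.21), and the TAC+ART library gave 46 of 6856 (0.671%, 0.492 to 0.894). The gated share was thus highest in Sham, with an interval that did not meet the others, while the TAC and TAC+ART intervals overlapped. Before the excluding genes were applied the order was different: at least 4 UMIs of Reln, Mmrn1 and Prox1 were held by 3.22%, 4.01% and 2.99% of barcodes, with TAC highest. The excluding genes removed 43 of 121 such barcodes in Sham, 226 of 297 in TAC and 159 of 205 in TAC+ART.

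Dcn, the fibroblast proteoglycan decorin, was the excluding gene that removed most of them in TAC and TAC+ART. It alone decided the removal of 18, 195 and 115 barcodes. At least 4 Dcn UMIs were also seen in 14.9%, 54.0% and 50.2% of cardiomyocyte barcodes, which should lack the gene (median depth 6914, 5215 and 5393 UMIs). Among barcodes with at least 4 gate UMIs the corresponding shares were 9.92%, 55.6% and 52.2%. The share of lymphatic barcodes removed by Dcn therefore moved with the share of cardiomyocyte barcodes holding it. Of the removed barcodes that were not rich in cardiomyocyte RNA, a Flt4 UMI was present in 20, 204 and 132.

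A second group of barcodes entered the gate mostly through Prox1 alone. Cardiomyocyte-rich barcodes were taken as those with at least 2% of their UMIs over Ttn, Ryr2, Myh6 and Ctnna3, and they made up 14 of the 78 members in Sham, 1 of 71 in TAC and 7 of 46 in TAC+ART. Prox1 was the only gate gene in 11, 0 and 6 of them. A UMI of Flt4 or Ccl21a, which the gate did not use, was found in only 2 of these 22 members, against 166 of the other 173. Among all barcodes with at least 2% cardiomyocyte UMIs, Prox1 was seen in 177 of 324 in Sham (54.6%), 86 of 244 in TAC (35.2%) and 143 of 400 in TAC+ART (35.8%). Reln was seen in 9, 14 and 21 of these barcodes, so Prox1 was the gate gene they carried most often.

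For these reasons 2 further sets, chosen after the values were seen, are given beside the gate for the main results. The first is the gate without its cardiomyocyte-rich members, with 64, 70 and 39 barcodes in Sham, TAC and TAC+ART. The second, called the wider set, takes at least 4 gate UMIs and under 2% cardiomyocyte UMIs and applies no excluding genes, with 90, 294 and 181 barcodes. The wider set made up 2.40% (1.93 to 2.94), 3.97% (3.53 to 4.44) and 2.64% (2.27 to 3.05) of the barcodes. In it the TAC share was the highest, the reverse of the gated share. On the log2 scale the TAC over Sham ratio of shares was -1.12 by the gate and 0.73 in the wider set, and the TAC+ART over TAC ratio was -0.51 and -0.59.

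**Figure D1:**
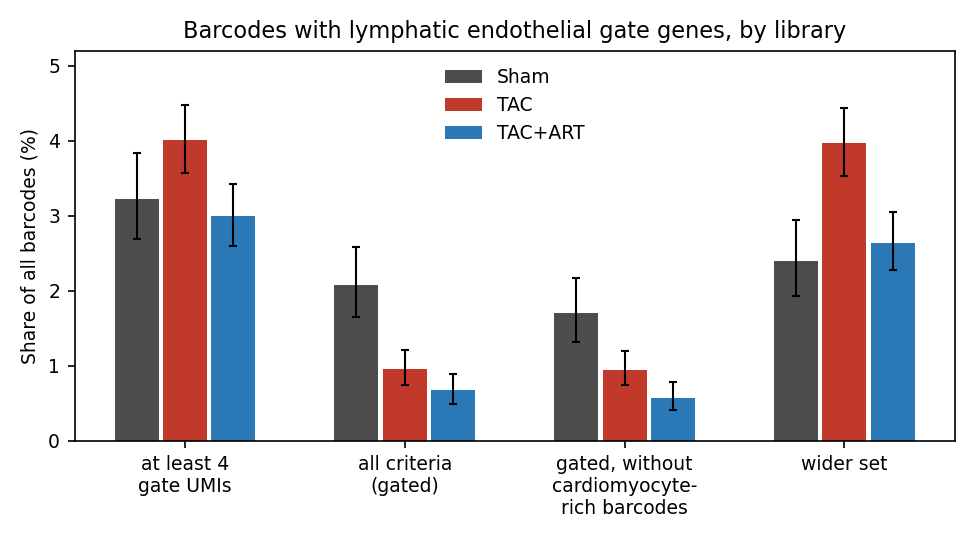
Share of all barcodes of each library (%, vertical axis) that passed each definition, with exact 95% counting intervals as bars; 1 library per group. The gated share is 2.08% in Sham and 0.958% in TAC, whereas the wider set is at 2.40% and 3.97%, and TAC+ART lies below TAC under every definition shown.

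The label was checked against genes the gate did not use. All 9 lymphatic markers outside the gate were detected in every library, with summed levels of 5401, 8194 and 5426 CPM (UMIs per 1000000 UMIs of the set). They are Flt4, Ccl21a, Lyve1, Pdpn, Nr2f2, Sox18, Fxyd6, Nrp2 and Stab1. All 10 cardiomyocyte markers were also detected, summing to 19522, 5681 and 18279 CPM, and to 4496, 5143 and 5408 CPM without the cardiomyocyte-rich members. The lymphatic markers then summed to 7453, 8320 and 7306 CPM. The data thus bear out the label for the members poor in cardiomyocyte RNA and go against it for the 22 rich in it.

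Markers of other cells were also detected, at levels that differed between libraries. The 10 fibroblast markers summed to 806 CPM in Sham, 1811 in TAC (Tcf21 at 0) and 2009 in TAC+ART, and in the wider set to 1257, 2500 and 3092 CPM. The 10 macrophage markers summed to 125, 354 and 326 CPM (Cd68 at 0 in TAC+ART), and in the wider set to 227, 595 and 533 CPM. Both lists were higher in TAC and TAC+ART than in Sham. The fibroblast list holds the excluding genes Pdgfra and Dcn, and the macrophage list holds Mrc1 and Csf1r. The members' sums were thus limited in part by the gate itself, whereas the wider set applies no excluding genes. Of the 10 T, NK and B cell markers 3, 6 and 4 were detected, summing to 14.7, 53.8 and 30.05 CPM, and in the wider set 4, 8 and 5 markers summed to 11.03, 67.6 and 49.4 CPM. The T-cell genes Cd3e and Cd3d and the B-cell gene Ms4a1 were at 0 in the members of all 3 libraries. The 6 endocardial markers summed to 197, 396 and 60.1 CPM (Hapln1 at 0 in TAC and TAC+ART), and to 231, 402 and 75.4 CPM without the cardiomyocyte-rich members. TAC was thus highest for them in both sets, whereas in the wider set they summed to 468, 322 and 355 CPM. The 13 blood endothelial markers, all detected, summed to 2469, 2395 and 1782 CPM in the members and to 2422, 2188 and 2478 CPM in the wider set. The 10 pericyte and smooth muscle markers, which include the excluding gene Abcc9, summed to 150, 192 and 223 CPM in the members (Tagln at 0 in Sham). Schwann and epicardial markers summed to 246 CPM in Sham and 76.4 CPM in TAC. The part of these cells in the differences below was not tested.

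The members varied widely in their gate UMIs. In Sham the lowest, median and highest member held 4, 16 and 76 gate UMIs, in TAC 4, 19 and 124, and in TAC+ART 4, 14.5 and 72. All 3 gate genes were seen in 53, 58 and 30 members. Just inside the threshold, at 4 gate UMIs, lay 7, 3 and 5 members, of which 6, 1 and 3 were cardiomyocyte-rich. Just outside it, at 3 UMIs, lay 20, 8 and 7 barcodes that met the other criterion, of which 17, 4 and 7 were cardiomyocyte-rich. With 10 or more gate UMIs there were 57, 55 and 32 members, none of them cardiomyocyte-rich. The low edge of the gate was thus where the cardiomyocyte-rich barcodes lay.

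**Figure D2:**
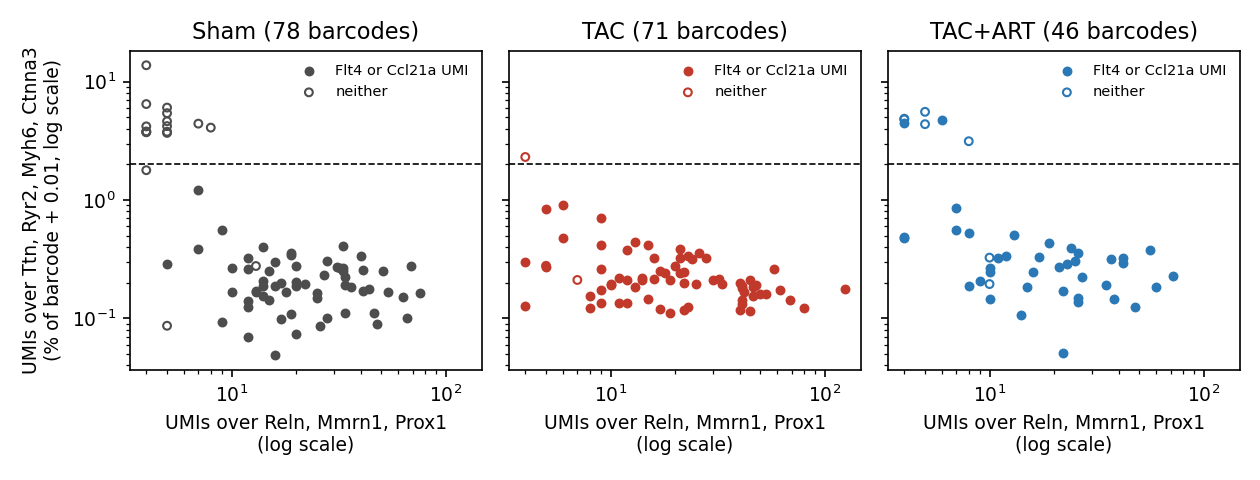
Each point is a gated barcode; the horizontal axis gives its UMIs over Reln, Mmrn1 and Prox1 and the vertical axis the percentage of its UMIs over 4 cardiomyocyte genes, both on log scales. Filled points hold a Flt4 or Ccl21a UMI and open points neither; above the dashed line at 2% lie 14, 1 and 7 barcodes, nearly all open and at low gate UMIs.

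Genes that stood out in the members against all other barcodes of the same library are given as a description, since the gate picked the cells. They included Dtx1, a regulator of Notch signalling, Sh3gl3 (endophilin A3), Tc2n, Adgrg3, the secreted protease Tll1, the guidance factor Sema3a, and Il7, the cytokine that keeps T cells alive. Il7 was at 194, 161 and 206 CPM in the members of Sham, TAC and TAC+ART and at 2.29, 3.25 and 4.71 CPM in blood endothelial barcodes. Blood endothelial barcodes held at least 4 UMIs over Flt1, Ptprb and Cyyr1, at most 1 over the gate genes and at most 3 over the excluding genes (1031, 829 and 693 barcodes). Tc2n was at 349, 580.2 and 292 CPM in the members against 2.03, 3.84 and 1.96 CPM in blood endothelium. The growth factor Vegfc had the opposite pattern, with 54.1, 31.1 and 8.59 CPM in the members (22, 11 and 2 UMIs) and 696, 510.0 and 648 CPM in blood endothelium. The receptor of VEGF-C was thus in the gated barcodes, and most of the VEGF-C RNA of endothelium was outside them.

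The first comparison asked how gated barcodes of the TAC library differed from those of Sham. Of 6698 genes with at least 20 UMIs in both libraries together, 21.9% were 1.5-fold or more higher in TAC and 16.7% were 1.5-fold or more lower, with a median log2 ratio of 0.11. Without the cardiomyocyte-rich members these were 16.8% and 15.2% of 6048 genes. The wider set had 16.7% and 14.9% of 10478 genes, with a median of 0.00. Of 37 lymphatic identity genes, 36 reached the UMI minimum among the members, 22 were 1.5-fold or more higher in TAC and 1 was lower, with a median of 0.69. Without the cardiomyocyte-rich members 9 of 36 were higher and 3 lower, with a median of 0.31, and in the wider set 10 of 37 were higher and 1 lower, with a median of 0.16. Counts for the lists below are likewise over the genes that reached the UMI minimum, higher and lower always mean by 1.5-fold or more there, and the shares over all genes just given are their background. The difference was thus smaller in both other sets. In blood endothelial barcodes, where 12.2% of 14000 genes were higher in TAC than in Sham and 12.1% lower, 15 of 33 lymphatic identity genes were higher and none lower, with a median of 0.52. The list was therefore higher in TAC outside the gate as well.

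Flt4 was at 686 CPM (607 to 771), 1279 CPM (1164 to 1403) and 691 CPM (589 to 807). By the gate TAC was high and the other libraries were alike. The log2 ratio of TAC over Sham was 0.90 (0.68 to 1.12), and 0.46 without cardiomyocyte-rich members and 0.38 (0.22 to 0.55) in the wider set. The TAC+ART over TAC ratio was -0.89, then -0.48 and -0.15 (-0.27 to -0.04) in the same sets. Wider-set levels of Flt4 were 831 CPM (750 to 920), 1085 CPM (1036 to 1136) and 977 CPM (916 to 1042). There TAC+ART lay nearer to TAC than to Sham.

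Ccl21a was at 1985, 3476 and 2138 CPM in the members and at 2558, 3948 and 3007 CPM in the wider set. TAC was highest in both, with a log2 ratio to Sham of 0.81 by the gate and 0.63 (0.54 to 0.72) in the wider set. TAC+ART over TAC was -0.70 and -0.39 (-0.46 to -0.33). The mouse genome holds near-identical Ccl21 copies, and the sources used here do not give how the authors' counting divided reads among them. Ccl21a UMIs were also more frequent outside lymphatic barcodes in TAC: in cardiomyocyte barcodes the level was 20.8, 66.8 and 36.8 CPM.

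Lyve1 was at 287, 759 and 348 CPM. It was again highest in TAC, with a log2 ratio of 1.40 (1.08 to 1.73) by the gate, 0.95 without cardiomyocyte-rich members and 0.65 (0.42 to 0.89) in the wider set. TAC+ART over TAC was -1.12, -0.72 and -0.52 (-0.69 to -0.35). Stab1, a scavenger receptor also found on lymphatic endothelium and macrophages, was at 307, 693 and 339 CPM, and at 408, 663 and 473 CPM in the wider set. Lyve1 and Stab1 are both made by resident macrophages, whose markers were higher in TAC and TAC+ART than in Sham. The part of macrophage RNA in these levels was not tested. Sema3a, a repulsive guidance factor, was at 359, 1016 and 472 CPM in the members and at 483, 1005 and 565 CPM in the wider set. Its TAC over Sham ratio was 1.5 by the gate and 1.05 (0.85 to 1.27) in the wider set, and its TAC+ART over TAC ratio was -1.10 and -0.83 (-0.97 to -0.69).

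Nrp2 and Nr2f2 did not follow this order. Nrp2, the co-receptor of Flt4, was at 1216, 849 and 910.1 CPM. Sham was highest, and TAC over Sham was -0.52 by the gate, -0.96 without cardiomyocyte-rich members and -0.33 (-0.46 to -0.20) in the wider set. Nr2f2, the venous and lymphatic transcription factor COUP-TFII, was at 585, 509.5 and 639.6 CPM, with TAC over Sham at -0.20 (-0.49 to 0.09) by the gate and -0.24 (-0.42 to -0.06) in the wider set. Pdpn (podoplanin) and Sox18 were highest in TAC by the gate. Pdpn was at 169.5, 272 and 103 CPM, with TAC over Sham at 0.68 by the gate and 0.14 (-0.19 to 0.49) in the wider set. Sox18 was at 51.6, 96.2 and 64.4 CPM from 21, 34 and 15 UMIs, and at this depth its difference in the wider set, 0.22 (-0.36 to 0.89), was not detectable.

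**Figure D3:**
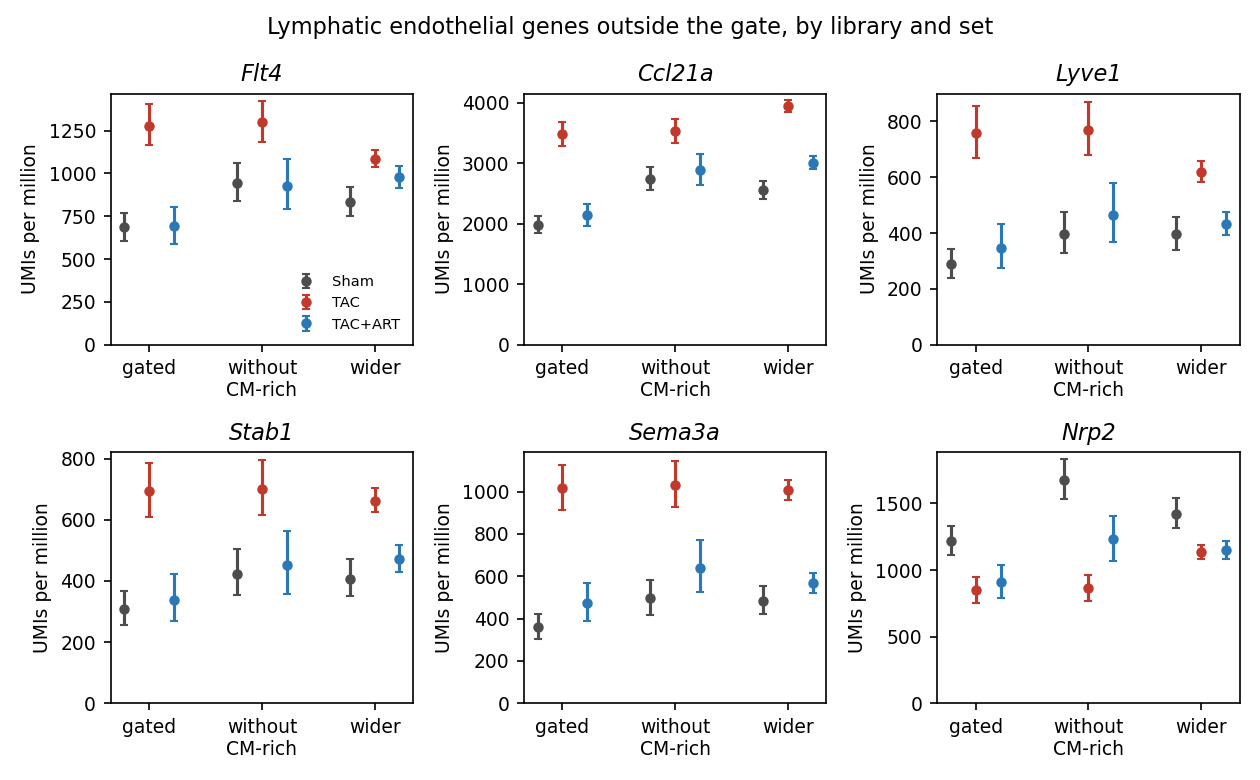
Levels of 6 lymphatic endothelial genes outside the gate (CPM, axes from 0) in the gated barcodes, in the gated barcodes without the cardiomyocyte-rich ones (CM-rich) and in the wider set; points are 1 library each and bars exact 95% counting intervals. Flt4, Ccl21a, Lyve1, Stab1 and Sema3a are highest in TAC in all 3 sets, and Nrp2 is highest in Sham.

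For Flt4 the share of members with a UMI was also highest in TAC after each barcode was thinned to 1000 UMIs, which left out no member. Flt4 was then seen in 50% (38.5 to 61.5), 74.6% (62.9 to 84.2) and 45.7% of members (30.9 to 61.0), against 0%, 0.5% and 0.621% of thinned cardiomyocyte barcodes. Unthinned, the members' shares were 75.6%, 94.4% and 73.9%, at median depths of 4553.5, 4752 and 4373 UMIs, and the cardiomyocyte shares were 4.65%, 3.5% and 4.95%. The zero in Sham cardiomyocyte barcodes allows a share of up to 1.40%. Without the cardiomyocyte-rich members the thinned shares were 54.7% (41.7 to 67.2), 68.6% (56.4 to 79.1) and 59.0% (42.1 to 74.4). TAC was again the highest, but these intervals overlapped.

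In the list of VEGF-C receptors and signalling, 6 of 26 genes were 1.5-fold or more higher in TAC than in Sham and 3 lower, with a median of 0.23 by the gate, -0.02 without cardiomyocyte-rich members and -0.04 in the wider set. Kdr (VEGFR2) was at 312, 391 and 305 CPM, and its TAC over Sham interval included 0 in all 3 sets. Vegfd, the other ligand of Flt4, was at 27.0, 36.8 and 34.3 CPM in the members (11, 13 and 8 UMIs), with both intervals including 0. It was at 30.9, 33.8 and 66.2 CPM in the wider set. In the list of TIE receptors and angiopoietins, 2 of 7 genes were higher and 2 lower, with a median of 0.28. In the wider set none of 9 was higher and 4 were lower, with a median of -0.29, so the direction turned. Tek (TIE2), the angiopoietin receptor, was at 265, 175 and 236 CPM in the members and at 357, 210 and 307 CPM in the wider set, with TAC over Sham at -0.77 (-1.04 to -0.49) and TAC+ART over TAC at 0.55 (0.32 to 0.78) there. TAC was the lowest library for Tek in both sets, and in blood endothelium Tek was at 728, 433 and 576 CPM.

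Adrenomedullin drives lymphatic growth through the receptor formed by Calcrl and Ramp2. Calcrl was at 423, 965 and 609.6 CPM and Ramp2 at 101, 209 and 197 CPM in the members. TAC over Sham was 1.19 and 1.05 by the gate, and 0.43 (0.25 to 0.62) and 0.86 (0.44 to 1.33) in the wider set. For Ramp2 the TAC+ART over TAC interval in the wider set included 0, at -0.13 (-0.40 to 0.14). Of the 5 genes of this list with enough UMIs, 3 were higher in TAC and none lower. In junctions and flow sensing, 11 of 30 were higher and 3 lower (median 0.43, and -0.07 in the wider set). Cldn5, the tight junction claudin of endothelium, was at 123, 382 and 219 CPM, with TAC over Sham at 1.63 by the gate and 0.77 (0.44 to 1.15) in the wider set. Pecam1 was at 442, 708 and 507 CPM and Cdh5 (VE-cadherin) at 206, 275 and 116 CPM. In the wider set Pecam1 was at 609, 584 and 560.2 CPM and Cdh5 at 267, 217 and 218 CPM, so the gated differences of both were not seen there. Jam2, a junctional adhesion molecule, was lower in TAC, at 95.8, 31.1 and 34.3 CPM, and at 72.8, 35.0 and 41.0 CPM in the wider set.

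In valve and collecting vessel genes, 8 of 15 were higher in TAC and 2 lower (median 0.71, and 0.28 in the wider set). Fbln2 (fibulin 2) was at 63.9, 212 and 159 CPM. In basement membrane and matrix, 23 of 34 were higher and 2 lower, with a median of 0.87 by the gate and 0.58 in the wider set. Col4a1, a collagen IV chain, was at 187, 569 and 270.4 CPM in the members, and at 241, 707 and 355 CPM in all other barcodes. Bgn (biglycan) was at 56.5, 337 and 253 CPM in the members and 183, 754 and 539 CPM in all other barcodes. Both levels were below those outside the gate and went in the same order. Fbln5 (fibulin 5) was above them, at 125, 260.4 and 85.9 CPM against 33.1, 60.3 and 59.9 CPM. Its TAC over Sham ratio was 1.05 by the gate and 0.63 (0.25 to 1.05) in the wider set. Among integrins and cytoskeletal anchors 6 of 16 were higher and 1 lower (median 0.46, and 0.19 in the wider set), and Itga9, the integrin of lymphatic valves, was at 811, 756 and 717 CPM. Among BMP, TGF-beta and Notch genes 6 of 26 were higher and 1 lower (median 0.35). Without cardiomyocyte-rich members 2 of 25 were higher and 1 lower (median 0.01), and in the wider set 3 of 32 were higher and 5 lower, with the median turned to -0.10.

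NF-kB target genes had the highest median of the 23 lists in all 3 sets. Among the members 12 of the 30 genes reached the UMI minimum, 8 were 1.5-fold or more higher in TAC than in Sham and none was lower, with a median of 1.19, and 0.91 without cardiomyocyte-rich members. The wider set had 11 of 20 higher and 2 lower, with a median of 0.82. Their summed level was 715, 1384 and 639.6 CPM in the members and 831, 1378 and 863 CPM in the wider set, with no barcode giving more than 7.16% of the sum in any library. TAC was thus the highest library in both sets. With at most 1 excluding UMI, which left 36, 11 and 8 members, the median turned to -0.59. The same order was seen in blood endothelium, where 21 of 26 genes of the list were higher in TAC than in Sham and none lower, with a median of 1.09. Icam1, the leukocyte adhesion molecule, is an example. It was at 19.7, 62.3 and 17.2 CPM in the members and at 55.9, 261 and 49.5 CPM in blood endothelium.

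Lcn2 (lipocalin 2), a secreted protein of the acute phase that binds iron carriers, led that list. It was at 36.9 CPM (15 UMIs), 178 CPM (63 UMIs) and 38.6 CPM (9 UMIs). TAC was high and Sham and TAC+ART were alike, with TAC over Sham at 2.24 (1.45 to 3.19) and TAC+ART over TAC at -2.14 (-3.40 to -1.19). Its wider-set levels were 52.9, 150 and 75.7 CPM, with ratios of 1.48 (0.90 to 2.17) and -0.98 (-1.39 to -0.60). In TAC its UMIs came from 144 of the 294 wider-set barcodes. Outside, it was at 0.508, 8.26 and 1.57 CPM in blood endothelial and at 2.22, 2.74 and 1.10 CPM in cardiomyocyte barcodes. Thinned to 1000 UMIs it was seen in 8.89%, 13.6% and 8.84% of the wider set, and in 0%, 0.724% and 0.144% of blood endothelial and 0.467%, 0% and 0.311% of cardiomyocyte barcodes. The zeros allow up to 0.291% and 1.5%. Unthinned, these shares were 0.194%, 2.77% and 0.577% in blood endothelial and 0.465%, 1.5% and 0.619% in cardiomyocyte barcodes. Lcn2 RNA was thus at a higher level in the lymphatic barcodes than in blood endothelial and cardiomyocyte barcodes in each library. In all barcodes outside the gate, which include the lymphatic ones it removed, Lcn2 was at 1.33, 11.2 and 3.65 CPM. Its share of UMIs by cell type was not measured. The thinned wider-set intervals of TAC (9.90 to 18.1) and Sham (3.92 to 16.8) overlapped.

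Serpina3n, a secreted serine protease inhibitor of the acute phase, was at 22.1, 224 and 34.3 CPM. TAC over Sham was 3.27 (2.34 to 4.52) and TAC+ART over TAC -2.62 (-3.96 to -1.65), and in the wider set the ratios were 2.74 (1.99 to 3.71) and -2.83 (-3.49 to -2.28). It was also highest in TAC in blood endothelial barcodes (5.84, 45.7 and 9.04 CPM) and in cardiomyocyte barcodes (5.19, 45.7 and 6.59 CPM), at lower levels. Thinned, 1.11%, 16.7% and 3.87% of the wider set held a UMI, against 1.40%, 5.50% and 1.24% of cardiomyocyte barcodes. The wider-set share was thus above the cardiomyocyte share in TAC and TAC+ART, but not in Sham. Lrg1, a glycoprotein that modulates TGF-beta signalling in endothelium, was at 36.9, 241 and 73.0 CPM. Its ratios were 2.67 (1.90 to 3.61) and -1.69 (-2.57 to -0.96) by the gate, and 2.28 (1.60 to 3.14) and -1.55 (-1.99 to -1.14) in the wider set. In blood endothelium Lrg1 was at 8.13, 44.6 and 15.7 CPM.

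Among chemokines, scavenging receptors and leukocyte entry genes, 8 of 20 were higher in TAC and 1 lower (median 0.50, and 0.31 in the wider set). Ackr2, the decoy receptor by which lymphatic endothelium takes up inflammatory chemokines, was at 51.6, 195 and 77.3 CPM from 21, 69 and 18 UMIs. TAC over Sham was 1.90 (1.20 to 2.70) by the gate and 1.38 (0.85 to 2.01) in the wider set, and TAC+ART over TAC was -1.31 and -0.78 (-1.14 to -0.45). In blood endothelium Ackr2 lay at 6.86, 8.26 and 6.68 CPM, with TAC again highest but at lower levels and with smaller differences. Spns2, which exports sphingosine 1-phosphate into lymph, was at 73.7, 212 and 189 CPM, and at 86.0, 160.1 and 145 CPM in the wider set. Unlike Ackr2 it was at a similar level in TAC and TAC+ART. Fgl2 (fibroleukin) was likewise at 155, 487 and 335 CPM, and at 187, 400.1 and 395 CPM in the wider set.

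**Figure D4:**
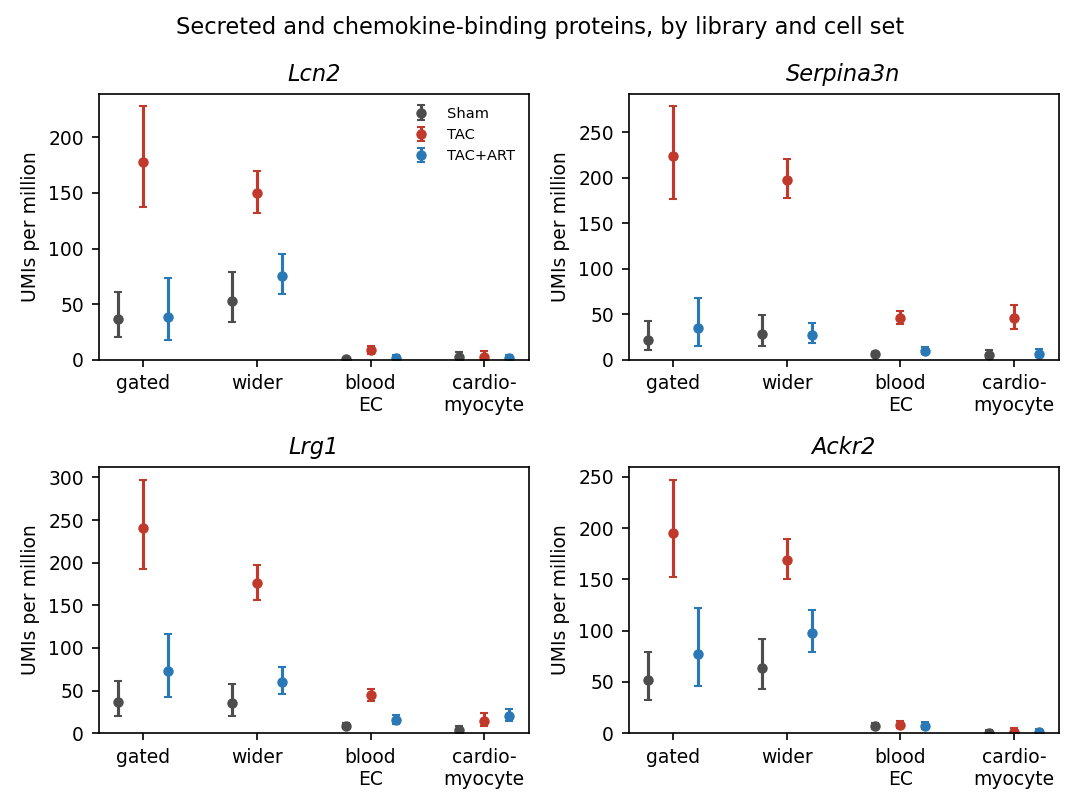
Levels of Lcn2, Serpina3n, Lrg1 and Ackr2 (CPM, axes from 0) in gated, wider-set, blood endothelial (EC) and cardiomyocyte barcodes of each library, with exact 95% counting intervals as bars; 1 library per group. In the gated barcodes TAC lies at 178, 224, 241 and 195 CPM, above Sham and TAC+ART, and the same order is seen in the wider set.

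Ly96, the series' target, was scarce in the members. It gave 14 UMIs (34.4 CPM, 18.8 to 57.7), 6 UMIs (17.0, 6.23 to 37.0) and 5 UMIs (21.5, 6.97 to 50.1). The intervals overlapped, and TAC over Sham was -0.95 (-2.69 to 0.45). Its wider-set levels were 30.9, 27.3 and 24.2 CPM, and in blood endothelium at 20.8, 18.0 and 22.0 CPM. Thinned, a Ly96 UMI was seen in 1.28%, 1.41% and 0% of members, where 0 of 46 allows up to 6.52%. Among cardiomyocyte barcodes the thinned shares were 0.935%, 1% and 0.932%. With so few members the shares could not be told apart. Unthinned, 12.8%, 7.04% and 10.9% of members held a Ly96 UMI. Tlr4, its partner receptor, was at 49.1, 31.1 and 189 CPM in the members, but at 23.7, 31.6 and 69.6 CPM without the cardiomyocyte-rich members and 35.3, 52.8 and 43.1 CPM in the wider set. Its TAC over Sham ratio was -0.63 (-1.87 to 0.47) by the gate and 0.54 (-0.20 to 1.45) in the wider set. Both intervals included 0, so no direction was established. Its TAC+ART over TAC ratio was 2.55 (1.62 to 3.70) by the gate. In the wider set it was -0.28 (-0.86 to 0.26), so the gated difference was not seen there. Cardiomyocyte barcodes held 141, 365 and 369 CPM of Tlr4. Of 23 genes of the TLR4 and MD2 pathway, 6 were higher in TAC and 4 lower, with a median of 0.11, the same as over all genes.

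Interferon response genes were higher by the gate, with 13 of 18 higher, none lower and a median of 0.92. Without cardiomyocyte-rich members 9 of 18 were higher and 1 lower, with a median of 0.58. The wider set had 2 of 27 higher and 3 lower, with a median of -0.07. In blood endothelium 1 of 32 was higher and 9 were lower, with a median of -0.22. A single barcode held 29.6% of the TAC members' interferon UMIs. Rnf213, a large ubiquitin ligase induced by interferon, was at 120.4, 229 and 51.5 CPM by the gate but at 148, 143 and 131 CPM in the wider set. The gated difference in interferon genes was thus smaller without cardiomyocyte-rich members and not seen in the wider set. Antigen presentation had 4 of 8 genes higher and none lower (median 0.75, and 0.30 in the wider set), with the class II chaperone Cd74 at 12.3, 73.6 and 55.8 CPM.

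Core clock genes were the list with the lowest median, -0.76 by the gate, -0.75 without cardiomyocyte-rich members and -0.72 in the wider set. Of 13 genes 8 were 1.5-fold or more lower in TAC and 2 higher. Dbp, a clock output transcription factor, was at 130.2, 59.4 and 94.4 CPM, and Per3, a repressor of the clock, at 111, 53.8 and 90.1 CPM. TAC was lowest and TAC+ART between. The same order was seen in blood endothelium, where Dbp was at 167, 59.9 and 125 CPM and Per3 at 152, 47.8 and 125 CPM. The sources used here do not give the hour of tissue collection, which cannot be told apart from the groups.

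The E-box CACGTG is bound by the clock factors Clock and Arntl. It was in the 250 bases before a start of 5 of the 16 list genes matched in the RefSeq table of promoters (GRCm38.p6), against 6.86% of all 27025 genes, and not in that window of Dbp or Per3. Tef, a transcription factor of the same family as Dbp, is shown because it carries an E-box (in capitals) before both of its listed starts, at chr15:81802423-81802672 and chr15:81811164-81811413 on the plus strand.
Tef, first start: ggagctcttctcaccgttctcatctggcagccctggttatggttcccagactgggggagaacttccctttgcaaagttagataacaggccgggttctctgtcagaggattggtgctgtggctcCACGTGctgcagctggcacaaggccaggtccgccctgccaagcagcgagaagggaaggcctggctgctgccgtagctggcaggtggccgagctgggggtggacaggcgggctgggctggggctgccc
Tef, second start: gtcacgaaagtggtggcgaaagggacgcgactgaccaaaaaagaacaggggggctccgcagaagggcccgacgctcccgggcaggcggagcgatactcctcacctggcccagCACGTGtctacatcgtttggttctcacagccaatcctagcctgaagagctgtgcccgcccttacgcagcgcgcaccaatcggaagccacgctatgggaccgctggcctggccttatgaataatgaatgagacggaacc
Tef was at 236, 84.9 and 150 CPM in the members and at 212, 91.3 and 150 CPM in the wider set. TAC was lowest in both, with TAC over Sham at -1.46 (-2.12 to -0.87) by the gate and -1.22 (-1.59 to -0.83) in the wider set. TAC+ART over TAC was 0.82 (0.08 to 1.58) and 0.72 (0.38 to 1.06). In blood endothelium Tef was at 239, 85.6 and 180 CPM.

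Nuclear-encoded oxidative phosphorylation had 15 of 34 genes higher and 1 lower by the gate (median 0.51), and 20 of 35 higher and none lower in the wider set (median 0.66), with Ndufb9 at 61.4, 173 and 98.7 CPM. Immediate early and heat shock genes had 8 of 18 higher and 1 lower (median 0.45, and 0.39 in the wider set). The chaperone Hsph1 was at 9.83, 56.6 and 25.8 CPM. The unfolded protein response had 9 of 17 higher and 2 lower (median 0.63, and 0.19 in the wider set), with the chaperone calreticulin, Calr, at 63.9, 187 and 98.7 CPM. Iron, haem and ferroptosis genes had 6 of 18 higher and 2 lower (median 0.46, and 0.05 in the wider set), with the ferritin chain Fth1 at 275, 555 and 425 CPM. Fatty acid uptake and oxidation had 3 of 25 higher and 8 lower by the gate (median -0.02). It had 7 of 22 higher and 1 lower without cardiomyocyte-rich members (median 0.10), and 3 of 28 higher and 2 lower in the wider set (median 0.03), so the balance turned. Guidance receptors had 5 of 13 higher and 3 lower (median 0.03, and 0.01 in the wider set). Secreted growth factors had 5 of 18 higher and 3 lower (median 0.02), with medians of -0.31 and -0.07 in the other sets. Of 33 cell cycle genes only Pcna reached the UMI minimum among the members, at 22.1, 34.0 and 21.5 CPM.

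Genes of any list or none were ranked by the interval bound nearest 0, after the filters given in the processing section. TAC over Sham was led by Nppa, Acta1, Postn, Serpina3n, Sdc1, Lrg1, Nrxn3, Tmsb10, Cmah and Adamts5. Nppa, the natriuretic peptide of stressed cardiomyocytes, was at 12.3, 232 and 64.4 CPM in the members and at 11.5, 311 and 92.1 CPM in all other barcodes. Acta1 and Postn were below the level of all other barcodes in each library, as was Nppa in TAC and TAC+ART. All other barcodes pool many cell types. The part of RNA from other cells in these 3 levels was not tested. Cmah, the hydroxylase that makes N-glycolylneuraminic acid, was at 78.6, 365 and 73.0 CPM in the members and 104, 336 and 142 CPM in the wider set, with a ratio of 2.20 and 1.68. In Sham 1 barcode gave 31.2% of its UMIs. Tmsb10 (thymosin beta 10), an actin-binding peptide, was at 41.8, 243 and 90.1 CPM, and at 57.3, 199 and 96.7 CPM in the wider set. Nrxn3 differed by 2.28 by the gate and 0.23 in the wider set.

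At the lower end of this ranking lay cardiomyocyte genes such as Kcnd2, Cacna1c and Cacnb2. Cacna1c, the cardiac calcium channel subunit, was at 2745, 125 and 3022 CPM in the members and at 403, 121 and 290.1 CPM without the cardiomyocyte-rich members. The numbers of those members, 14, 1 and 7, moved with the levels in the members. In the wider set, which takes only barcodes under 2% cardiomyocyte UMIs, Cacna1c was at 1090, 232 and 285 CPM. TAC over Sham was -2.23 (-2.42 to -2.03) there, and -3.06 (-3.55 to -2.60) for Kcnd2 and -1.01 (-1.68 to -0.29) for Cacnb2. The difference was thus also seen in that set, with TAC+ART near TAC for Cacna1c. Its cause was not tested. The guidance receptor Epha7 was at 152, 14.2 and 21.5 CPM, but 1 barcode gave 53.2% of its Sham UMIs.

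The second comparison asked how gated barcodes of TAC+ART differed from those of TAC. It shares the TAC library with the first, so opposite signs in both follow in part from that library's counts, and the values of each comparison are set side by side without a measure of overlap. Of 5686 genes, 14.9% were 1.5-fold or more higher in TAC+ART and 22.6% lower, with a median log2 ratio of -0.14. Of 11132 wider-set genes 9.49% were higher and 10.9% lower, with a median of -0.03. In blood endothelium 9.23% of 13355 genes were higher and 8.39% lower.

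NF-kB target genes were lower in TAC+ART in all 3 sets. Among the members 9 of 10 were 1.5-fold or more lower and none higher, with a median of -1.12, and the median was -1.02 without cardiomyocyte-rich members. Of 20 wider-set genes 13 were lower and none higher, with a median of -0.65. In blood endothelium 22 of 26 were lower and none higher, with a median of -1.28. Icam1 in the wider set was at 85.4 CPM in TAC and 30.5 in TAC+ART, and 1 barcode gave 34.7% of its TAC UMIs. Macrophage markers summed to 354 and 326 CPM in the members and 595 and 533 CPM in the wider set. Among them Mrc1, an excluding gene, went the other way in the wider set, at 193 CPM in TAC and 242 in TAC+ART. The part of macrophage RNA in the NF-kB difference was not tested. Immediate early and heat shock genes had 7 of 14 lower and none higher (median -0.62), and 10 of 21 lower and none higher in the wider set (median -0.55). The AP-1 subunit Fosl2 was at 65.1 CPM in TAC and 4.29 in TAC+ART by the gate, and at 48.6 and 17.9 CPM in the wider set.

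Lymphatic identity genes had 17 of 34 lower and none higher by the gate (median -0.61). Of the 37 wider-set genes 3 were lower and 1 higher, with a median of -0.06, and the median was -0.19 without cardiomyocyte-rich members. The difference was thus smaller in both other sets. In blood endothelium 10 of 33 were lower and none higher, with a median of -0.36. The 3 lower in the wider set were Lrg1 at -1.55, Nts (neurotensin) at -0.99 and Sema3a at -0.83. Adamtsl1, an ADAMTS-like matrix protein with little RNA in other barcodes, was at 794, 1851 and 768 CPM, with TAC+ART over TAC at -1.27 (-1.52 to -1.03) by the gate and -0.57 (-0.68 to -0.46) in the wider set. In all other barcodes Adamtsl1 was at 26.7, 86.0 and 53.7 CPM.

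Chemokine and leukocyte entry genes had 7 of 14 lower and none higher (median -0.55, and -0.34 in the wider set). Junctions had 12 of 26 lower and none higher (median -0.55), but 1 of 32 lower and 2 higher in the wider set (median 0.04). Klf2, the transcription factor of flow sensing, was at 275 CPM in TAC and 144 in TAC+ART in the wider set. Valve genes had 5 of 13 lower (median -0.44, and -0.05 in the wider set), and basement membrane genes 13 of 33 lower and 2 higher (median -0.41, and -0.19 in the wider set). Timp1, an inhibitor of matrix proteases, was listed at 0 UMIs in the Sham members, 56.6 CPM in TAC and 12.9 in TAC+ART, and at 2.21, 46.2 and 9.46 CPM in the wider set. VEGF-C signalling had 5 of 24 lower and 1 higher (median -0.33), TIE and angiopoietin genes 1 of 7 each way (-0.39), adrenomedullin signalling 1 of 5 lower (-0.18), integrins 3 of 15 lower and 1 higher (-0.17) and BMP, TGF-beta and Notch 7 of 24 lower and 1 higher (-0.43). In the wider set the medians of these 5 lists lay between -0.14 and 0.20.

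Interferon genes had 9 of 12 lower and 1 higher (median -1.20), and 4 of 28 lower and 3 higher in the wider set (median -0.04). Without cardiomyocyte-rich members 7 of 12 were lower and 1 higher (median -0.88). Blood endothelium went the other way, with 11 of 32 higher and none lower (median 0.48). The TLR4 and MD2 pathway had 8 of 18 lower and 2 higher (median -0.49, and -0.15 in the wider set). Antigen presentation had 2 of 9 lower (median -0.21) but 7 of 20 higher and 2 lower in the wider set (median 0.36). Core clock genes had 5 of 10 higher and none lower (median 0.30, and 0.28 in the wider set). Oxidative phosphorylation had 7 of 34 lower and 1 higher (median -0.12), the unfolded protein response 7 of 14 lower and 3 higher (-0.36), iron and ferroptosis genes 5 of 15 lower and 2 higher (-0.21), secreted growth factors 6 of 17 lower and 4 higher (-0.12), guidance receptors 3 of 12 lower and 1 higher (0.01) and fatty acid genes 4 of 24 lower and 6 higher (-0.07). The medians of secreted growth factors turned to 0.27 without cardiomyocyte-rich members and 0.12 in the wider set, and that of guidance receptors to -0.29 and -0.03.

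By the same ranking, the genes lowest in TAC+ART against TAC were Serpina3n, Cmah, Rasgef1b, Fam43a, Rnf213, Unc5b, Lcn2, Nppa, Adamtsl1 and Ldb2. Of these, Serpina3n, Cmah, Fam43a, Lcn2 and Nppa were also lower by more than 1.5-fold in the wider set, at -2.83, -1.24, -0.69, -0.98 and -2.15. Rasgef1b, Rnf213, Unc5b and Ldb2 were at -0.38, -0.12, -0.29 and -0.29 there. The genes highest in TAC+ART were led by Hs3st5, Kcnd2 and Cacna1c. Cacna1c over TAC was 4.59 by the gate and 0.29 in the wider set.

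**Figure D5:**
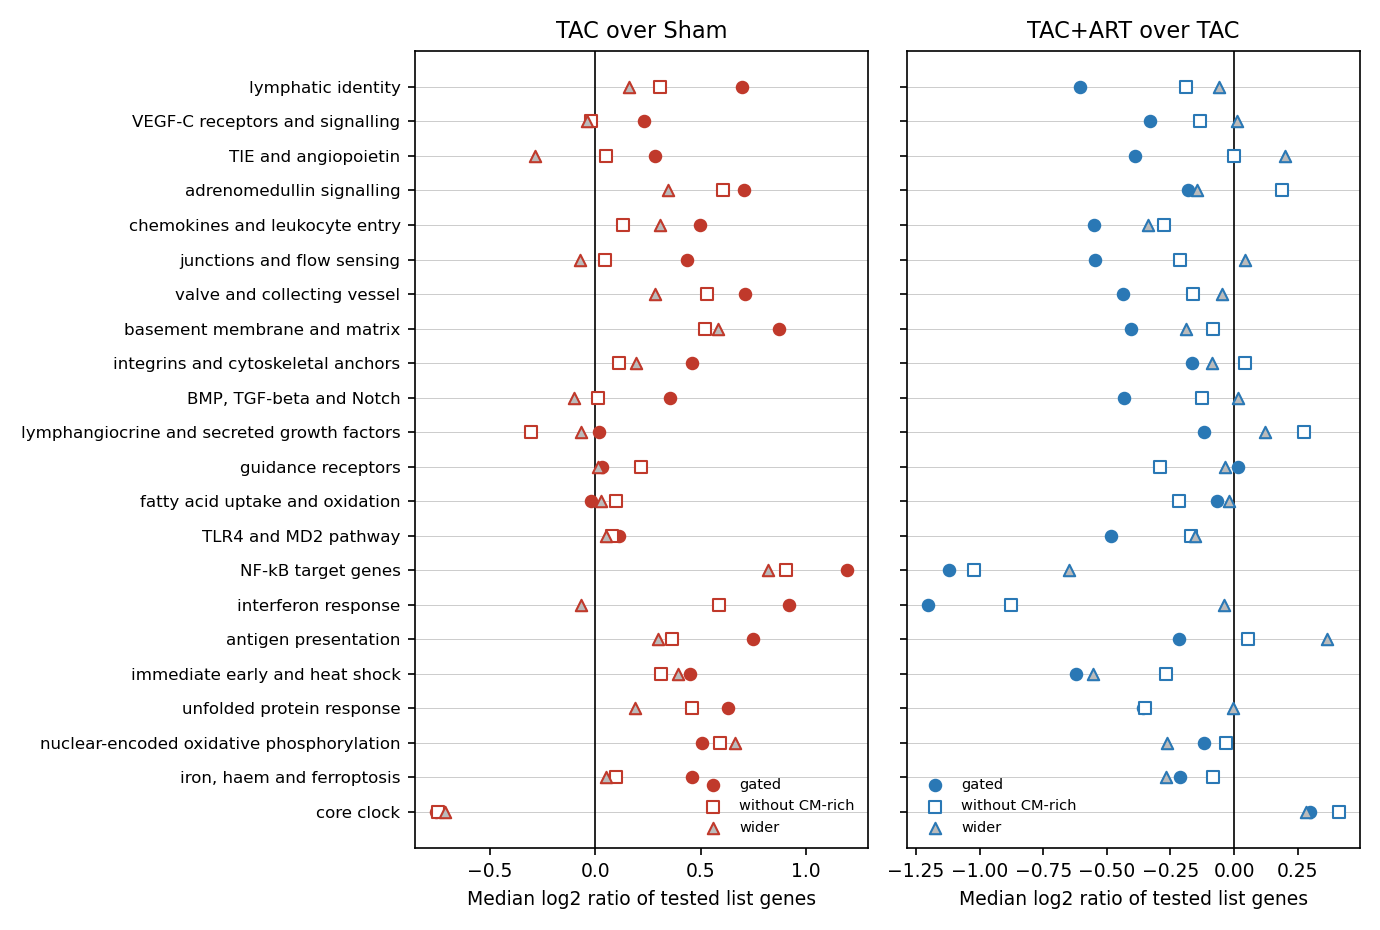
Median log2 ratio of the tested genes of each list (horizontal axis) in each comparison, in the gated barcodes (circles), without the cardiomyocyte-rich members (squares) and in the wider set (triangles); the cell cycle list is left out. NF-kB targets lie at 1.19, 0.91 and 0.82 and then at -1.12, -1.02 and -0.65, and core clock genes on the opposite sides, while lymphatic identity lies near 0 in the wider set.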

How the data were processed

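For each of the 3 libraries the authors deposited a matrix of UMI counts, not normalized. Cell Ranger, Seurat and the mm10 build are named in the submitters' processing notes; the sources used here give no versions, annotation or filters. The matrices held 29994 symbols. Total counts were 17710689 (Sham), 37658150 (TAC) and 33364667 (TAC+ART), with a median of 4310, 4811 and 4524.5 UMIs per barcode. Libraries shared 20 to 27 barcode sequences per pair, and no sequence was a member in 2 libraries.

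Groups came from the sample labels. The gate was applied to all deposited barcodes, with no other filter. UMIs were summed per set and library and divided by the set's total (CPM). For log2 ratios 0.5 was added to both sums. Genes with at least 20 UMIs in both libraries together counted as tested, and 1.5-fold as called. Shares have Clopper-Pearson, levels Poisson and ratios conditional binomial intervals, all exact at 95%. UMIs carry amplification and capture effects that these intervals do not cover. The script was tested on simulated data. Promoters came from RefSeq, matched by symbol.

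The members, the 23 lists and the marker lists were chosen with earlier results of these data known. Named genes were the 10 highest and 10 lowest per comparison, ranked by the interval bound nearest 0, with at least 100 CPM and 5 barcodes in the higher library, and at least 0.5 times the level of all other barcodes there; markers of other classes were left out. Of each list the 2 highest and 2 lowest were eligible, and a fixed set of lymphatic and TLR4 genes was always named. Other genes in the text, among them Stab1, Bgn, Tc2n, Spns2, Tef, Klf2 and Fbln5, were chosen after their values were seen. Doublets were scored with Scrublet in scanpy 1.11.5, and the top 0.8% per 1000 barcodes was marked, which was 113, 440 and 376 barcodes (3.01%, 5.94% and 5.48%). Of the members 2, 6 and 1 were marked. They were kept, and removed as an alternative. Of the wider set 5, 30 and 16 barcodes were marked (5.56%, 10.2% and 8.84%), a higher share than of all barcodes in each library. Thinning drew 1000 UMIs per barcode for the shares with a UMI and 2000 for the thinned gate (seed 1). Python 3.11.15, numpy 2.4.6, scipy 1.17.1, pandas 2.3.3 and matplotlib 3.10.9 were used.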

Additional observations from a re-analysis of the deposited data

How the results depend on the processing

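With 1 library per group, no value carries an error between hearts, and none of the differences can be told apart from differences between the 3 preparations. No paired analysis was possible because each group is 1 library. The number of members, 46 to 78 per library, limits genes under about 20 UMIs. Median-of-ratios scaling moved all TAC over Sham ratios by -0.08 and the others by 0.08, and it moved no single named gene beyond its interval; nor did removing marked doublets.

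The log2 ratio of gated shares, TAC over Sham, was -1.12 by the gate and -2.69 with at most 1 excluding UMI. It was -0.38 with a changed gate, applied after each barcode was thinned to 2000 UMIs (76, 114 and 66 barcodes). This thinned gate required fewer gate UMIs and allowed fewer excluding UMIs. Its values are therefore not those of the same gate at equal depth. The ratio was 0.73 in the wider set, 0.49 with Dcn left out of the excluding genes and 0.70 in the wider set without doublets. The last 3 were chosen after seeing the data. The counts of genes 1.5-fold higher and lower in TAC than in Sham (1466 and 1121) and in TAC+ART than in TAC (850.0 and 1286) became 500, 556, 187 and 326 with at most 1 excluding UMI, 648, 462, 272 and 528 with at least 50 UMIs, and 3102, 2651, 2465 and 2887 with at least 5 UMIs, where more or fewer genes were tested. The count lower in TAC+ART was 830 with barcodes of 2000 to 8000 UMIs only, and the count higher in TAC was 2220 with Dcn left out.

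These directions turned. Tlr4, TAC over Sham, was 0.50 with at least 6 gate UMIs, 1.11 with at most 1 excluding UMI, 0.68 with Mrc1 left out, 0.52 at 2000 to 8000 UMIs, 0.38 without cardiomyocyte-rich members, 0.54 in the wider set and 0.68 there without doublets. With at most 1 excluding UMI, which left 36, 11 and 8 barcodes, Kcnj3 was 0.75 and the medians of valve, NF-kB and interferon genes -0.17, -0.59 and -1.10 for TAC over Sham. TAC+ART over TAC was then 0.013 for Rnf213, 1.60 for Vegfc and 1.89 for the median of immediate early genes. The interferon median, TAC over Sham, was -0.024 with the thinned gate, -0.070 in the wider set and -0.015 there without doublets, and for TAC+ART over TAC 0.021 in the last. The cell cycle median was -0.086 in the wider set, -0.21 with Dcn left out and -0.049 in the wider set without doublets. In the wider set Pecam1, TAC over Sham, was -0.060, and the second comparison gave -0.19 for Tnni3k, -0.66 for Pde1c, -0.34 for Gm20619, 0.0054 for Cdh5 and -0.28 for Tlr4. Without doublets these were -0.22, -0.26, -0.25, 0.12 and -0.31, and Vegfc was 0.67 for TAC over Sham. The cause was not tested beyond the numbers of barcodes given.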

Other observations

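Csmd1, a large membrane protein, came close to a single barcode in each library. In Sham 1 member held all 134 of its UMIs, in TAC 1 member held 116 of 120, and in TAC+ART 1 member held 260 of 267. In the wider set the top barcode held 98.5%, 72.0% and 85.2% of the gene's UMIs. Its level per library, among the highest against blood endothelium, therefore describes 3 barcodes.

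Nrg1, the growth factor neuregulin 1, had no UMI in the 78 Sham members, 30 in TAC and 3 in TAC+ART. One TAC barcode held 66.7% of the 30. In the wider set it gave 5, 201 and 87 UMIs, with 38.3% of the TAC UMIs and 50.6% of the TAC+ART UMIs in 1 barcode each.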
